A study of Mus musculus with 12 samples.

Results

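The mouse gene catalogue holds many models that carry only a Gm number or a LOC number, because they were predicted from the genome and have no established function. Of the 17576 genes listed for 12 libraries of C18-4 cells, 894 have such a symbol, and the 190 of them that reached at least 2 RPKM in at least 3 libraries are described here (162 Gm and 28 LOC symbols). RPKM are read numbers scaled to transcript length and to the mapped reads of a library. The members were therefore chosen by their level, so that the level itself is no finding. Among all genes, 10758 met the same threshold. The other 704 predicted genes stayed below it. Ranked by the value that decided membership (rank 3 of 12 libraries), the nearest excluded genes were Gm3776 at 1.86, Gm3417 at 1.83 and Gm3095 at 1.83 RPKM, and the nearest included ones were Gm2974 at 2.04, LOC108167368 at 2.07 and Gm3325 at 2.08 RPKM.

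C18-4 is an immortalized mouse line used as a model of spermatogonial stem cells. The 4 groups of 3 libraries each were 3NC (LV3 lentivirus with a control shRNA), KD (genotype label lncRNA5251 knockdown, LV3 with a mixture of 3 shRNAs against it), 5NC (LV5 vector without insert) and OV (genotype label lncRNA5251 overexpression, LV5 carrying it). All cells had thus received a vector, and the control groups differ in it. The comparisons were knockdown against 3NC, overexpression against 5NC, and the 2 controls against each other. Nothing states that the libraries of a group came from separate cultures, so that p-values measure the spread between these libraries, which may be technical. The germ cell markers Ret, Kit and Pou5f1 were at 0 in every library, and Ddx4, Dazl and Gfra1 did not exceed 0.17 RPKM, while Uchl1 ranged from 60.1 to 123 RPKM, Etv5 from 2.18 to 7.89 RPKM and Itga6 from 2.81 to 7.76 RPKM. In all, 4 of 14 germ cell markers, 5 of 8 Sertoli cell markers (Wt1 from 49.8 to 57.5 RPKM) and 5 of 7 mesenchymal markers (Vim from 520.1 to 632.7 RPKM) reached 1 RPKM. Of 3 macrophage markers, 1 did (Cd68), while Ptprc and Csf1r did not exceed 0.07 RPKM. Some markers differed between the groups: the means of 3NC, KD and 5NC were 21.6, 36.1 and 112 RPKM for Dcn, 36.0, 59.5 and 118 RPKM for Col3a1, 5.05, 2.69 and 2.18 RPKM for Cd68, and 7.81, 2.35 and 3.10 RPKM for Etv5. Their part in the results was not tested. All 3 shRNA sequences of the study matched Purb transcripts of GENCODE M21 exactly, and no other gene and none of the members did. Purb was at 32.9, 34.1 and 33.8 RPKM in 3NC and at 8.93, 8.79 and 10.3 RPKM in KD (log2 fold change -1.75, standard error (SE) 0.10, adjusted p = 1.69e-09 by limma). Purb differed between OV and 5NC by -0.19 (adjusted p = 0.176). The level of lncRNA5251 itself was not analysed here. Library 3 of OV stood apart from the other two of its group. The members made up 2.03% of its summed RPKM, against 1.67% and 1.78%, and from 1.96% to 2.07% in 5NC.

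Predicted genes often arise by copying. A messenger RNA can be reverse transcribed and inserted elsewhere as a processed pseudogene, tandem duplication can build clusters of near-identical genes, and old retroviruses leave proviruses with gag, pol and env frames. C2H2 zinc finger proteins, whose fingers hold a zinc ion between 2 cysteines and 2 histidines, form large clusters of this kind in the mouse and include repressors of transposable elements. A short read from one copy can also match another, so that the level listed for a copy depends on where its reads were placed.

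The label of predicted and noncoding genes went against the annotation for most members. By Entrez number, 162 of the 190 had an entry in RefSeq on GRCm38.p6, of which 138 were protein-coding, 15 pseudogenes, 1 a transcribed pseudogene and 6 lncRNAs. Of the others, 1 was a miscellaneous RNA and 1 was of type other. In addition, 28 members had no entry in that table. None of the named lncRNAs that were looked up for comparison was among the 11435 genes tested.

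To show how alike these genes are, transcripts of GENCODE M21 on GRCm38 were cut into words of 31 bases. In the 122 members with a transcript, a median of 77.0% of the words also occurred in another gene, and 81 members (66.4%) shared at least 50% of theirs. In the other tested genes the median was 1.7%, and 3.4% of them shared as much. For RIKEN clone genes and Zfp genes past the same threshold the medians were 4.6% and 3.9%. The spread between libraries of a group, as the median SD on the log2 scale, was 0.151 for the members and 0.085 for the other genes, at a lower median level of the members (2.74 against 3.90 on the log2(RPKM + 1) scale).

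Sequences of selected members show how far they match a relative. The first 180 bases of the longest reading frame of Rps6, which encodes a protein of the small ribosomal subunit, were identical in LOC105244208, named Rps6-ps4 in RefSeq:
Rps6 and LOC105244208: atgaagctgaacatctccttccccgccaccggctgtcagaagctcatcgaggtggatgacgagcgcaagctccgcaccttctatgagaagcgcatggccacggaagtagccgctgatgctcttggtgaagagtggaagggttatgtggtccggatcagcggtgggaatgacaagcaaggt
The same was true of Ahcy, which encodes S-adenosylhomocysteine hydrolase, and Gm4737:
Ahcy and Gm4737: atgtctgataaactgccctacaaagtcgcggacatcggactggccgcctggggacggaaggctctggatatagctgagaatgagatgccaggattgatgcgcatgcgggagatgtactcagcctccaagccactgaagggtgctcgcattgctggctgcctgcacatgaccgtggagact
Hmgb1, which encodes a chromatin protein, and Gm21596 differed at 1 of 180 bases, given in capitals:
Hmgb1: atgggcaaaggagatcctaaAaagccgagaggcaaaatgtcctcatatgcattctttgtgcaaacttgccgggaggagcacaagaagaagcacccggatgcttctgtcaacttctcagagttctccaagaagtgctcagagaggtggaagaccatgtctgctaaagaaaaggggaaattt
Gm21596: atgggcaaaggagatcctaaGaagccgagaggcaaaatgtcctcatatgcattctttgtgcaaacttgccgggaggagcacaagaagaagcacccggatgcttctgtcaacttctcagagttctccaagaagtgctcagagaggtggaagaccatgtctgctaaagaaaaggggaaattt
Members of 1 cluster were alike in the same way. Gm3239 and Gm3591 on chromosome 14 differed at 3 of 180 bases, given in capitals:
Gm3239: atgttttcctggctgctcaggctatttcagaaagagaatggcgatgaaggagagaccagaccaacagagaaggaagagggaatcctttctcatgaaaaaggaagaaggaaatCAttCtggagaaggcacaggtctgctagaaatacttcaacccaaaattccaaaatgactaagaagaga
Gm3591: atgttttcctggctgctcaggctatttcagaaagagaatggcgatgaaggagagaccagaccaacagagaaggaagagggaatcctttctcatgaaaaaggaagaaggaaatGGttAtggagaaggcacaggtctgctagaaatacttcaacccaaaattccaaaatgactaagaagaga
Promoter windows (RefSeq, GRCm38.p6, from 250 bases before to 50 after an annotated start) of Gm2977 at chr14:3503766-3504065 and of Gm3050 at chr14:3743159-3743458, both on the plus strand, were identical over 300 bases:
Gm2977 and Gm3050: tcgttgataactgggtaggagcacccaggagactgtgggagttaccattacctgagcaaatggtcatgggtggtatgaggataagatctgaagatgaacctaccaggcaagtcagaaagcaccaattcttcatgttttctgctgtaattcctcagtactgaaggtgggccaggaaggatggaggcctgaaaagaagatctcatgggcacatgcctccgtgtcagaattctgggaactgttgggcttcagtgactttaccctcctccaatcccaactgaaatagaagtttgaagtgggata
A window of LOC102633156 at chr2:175338244-175338543 on the minus strand and that of LOC102639653 at chr2:175737624-175737923 on the plus strand were identical over 287 bases:
LOC102633156 and LOC102639653: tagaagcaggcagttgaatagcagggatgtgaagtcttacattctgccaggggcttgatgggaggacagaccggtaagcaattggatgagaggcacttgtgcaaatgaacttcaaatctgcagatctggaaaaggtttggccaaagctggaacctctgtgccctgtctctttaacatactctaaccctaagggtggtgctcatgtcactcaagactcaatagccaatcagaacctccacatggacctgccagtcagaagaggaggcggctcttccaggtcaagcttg
A zinc finger unit is 21 codons long. The first unit in the longest frame is shown with its cysteine and histidine codons in capitals, identical in the first pair and related in Gm10324, whose frame of 604 codons holds 19 units:
Gm14440 and Gm14288: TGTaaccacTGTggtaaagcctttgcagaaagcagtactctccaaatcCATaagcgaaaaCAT
Gm10324: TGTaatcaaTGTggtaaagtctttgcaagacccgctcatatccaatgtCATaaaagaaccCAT

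Levels of members ranged from 0.797 to 1777 RPKM as a mean over all libraries, with a median of 5.86 RPKM. They were below 10 RPKM for 130 members and above 100 RPKM for 13. LOC105244208 was highest, from 1463 to 2099 RPKM over the libraries, while Rps6, whose product every cell needs, was listed at 19.7 to 34.2 RPKM. The ratio of their means was 67.8. Gm4737 averaged 146 RPKM, 24.2 times the 6.02 RPKM of Ahcy. Gm10045, a pseudogene whose words all occur in BC004004, averaged 229 RPKM against 62.4 RPKM. In the opposite direction, Gm10698, whose words all occur in Tmed2 (a carrier of secretory cargo), averaged 5.89 RPKM against 277 RPKM, and Gm12657, which shares 71.4% of its words with the histone gene H3f3a, averaged 19.8 RPKM against 416 RPKM. From these values alone, the reads of such a copy and of its relative cannot be told apart.

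**Figure D1:**
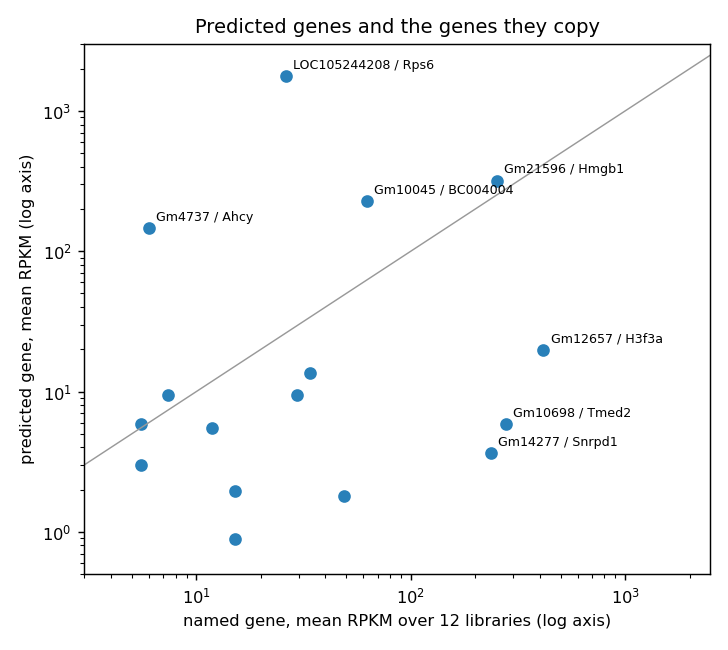
Mean RPKM over 12 libraries of 16 members (vertical, log axis) against that of the named coding gene with which each shares at least 50% of its words (horizontal, log axis), 1 point a member and a line where both are equal. LOC105244208, Gm4737 and Gm10045 lie well above the line at 1777, 146 and 229 RPKM, and Gm10698 and Gm12657 far below it.

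The other members with the highest means were Gm46255, Gm46008, Gm46310 and Gm8210. Gm46255 was at 2077, 2266 and 2237 RPKM in 3NC, at 1679, 1810 and 1560 in KD, at 1397, 1421 and 1582 in 5NC, and at 1096, 1299 and 1573 in OV. Library 3 of OV was the highest of its group here and in Gm46310 (844, 1042 and 1353 RPKM) and Gm46008 (791, 987 and 1315 RPKM). These 3 genes are a large part of the summed RPKM by which that library stood apart, so this is no separate observation. All 3 were lower in KD than in 3NC without overlap (log2 fold changes -0.38, -0.52 and -0.44 for Gm46255, Gm46310 and Gm46008, adjusted p = 0.00403, 0.00173 and 0.00813). They were also lower in 5NC than in 3NC, by -0.58, -0.35 and -0.51 in the same order (adjusted p = 0.000147, 0.0229 and 0.00296). After quantile normalization Gm46310 and Gm46008 lost this call (-0.16 and -0.34, adjusted p = 0.364 and 0.0716), and Gm46310 also in 4 fits without 1 library (adjusted p up to 0.0862). Values in 5NC were 1181 to 1396 RPKM for Gm46310 and 1186 to 1332 RPKM for Gm46008. None of them has a RefSeq entry in the table used. Gm8210, a pseudogene whose words all occur in Gm13841, was at 891 to 931 RPKM in 3NC and at 782 to 812 RPKM in KD (log2 fold change -0.18, adjusted p = 0.0204), a call lost without 3NC library 3 (adjusted p = 0.0712) or KD library 1 (adjusted p = 0.07). LOC105244208 differed between the controls, from 1968 to 1975 RPKM in 3NC against 1500 to 1545 RPKM in 5NC (log2 fold change -0.37, adjusted p = 4.73e-05), and knockdown differed from 3NC by 0.02 (adjusted p = 0.74). LOC100044627 and LOC100862455 had the same value in every library (372 to 561 RPKM) and are 1 measurement.

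Knockdown was accompanied by a fall of a limited number of members. With adjusted p ≤ 0.001 and a log2 fold change of 1 or more in size, which is the stricter threshold, 20 of the 190 members fell (10.5%) and 2 rose (1.05%) against 3NC. Among all 11435 genes tested, 1.08% fell and 0.498% rose. The median log2 fold change of the members was -0.001, and that of all genes 0.041. The 2 that rose were members only through their level in KD, and some that fell only through their level in 3NC. Within the 132 members that were at 2 RPKM or more in all libraries, 15 fell and 0 rose. With adjusted p ≤ 0.05, 62 members fell and 47 rose, where 23.5% of all genes fell and 31.9% rose. A fall was also seen between the controls, where 18 members were lower in 5NC than in 3NC (9.47%) and 3 were higher (1.58%), against 1.05% and 1.56% of all genes. Within the same 132 members, 13 were lower and 1 was higher. With adjusted p ≤ 0.05, 74 were lower and 18 higher in 5NC, against 25.6% and 31% of all genes. Both comparisons use the same 3NC libraries, so their results are not independent. Against 5NC, knockdown had 3 members lower and 4 higher at the stricter threshold (2.29% and 1.26% of all genes), and with adjusted p ≤ 0.05, 40 were lower and 68 higher (31.4% and 34% of all genes). Of the Zfp genes and RIKEN clone genes past the RPKM threshold, 0 of 292 and 0 of 160 fell under knockdown and 1 of each rose, a difference from the members that was not tested.

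**Figure D2:**
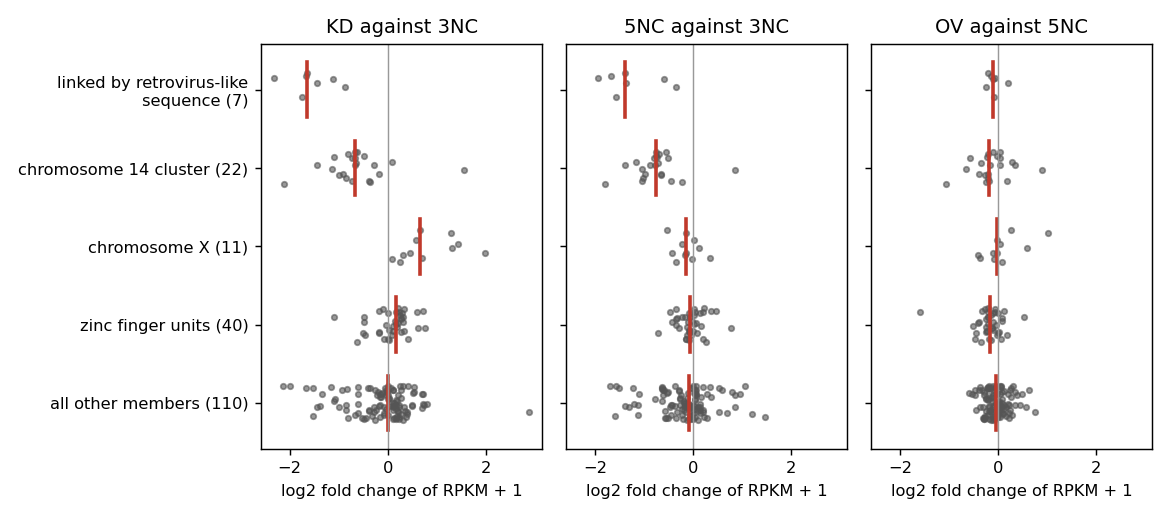
Log2 fold change of log2(RPKM + 1) of each member (points, spread vertically for view) in 3 comparisons, by group of members, with the number in each and the median as a red bar. Each of the 190 members is in 1 group. Members linked by retrovirus-like sequence and all but 1 or 2 of the chromosome 14 cluster lie left of 0 in both comparisons with 3NC, chromosome X members lie right of 0 under knockdown, and the overexpression panel is centred near 0.

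Some of the members that fell were linked by sequence of retroviral kind. The promoter windows of 6 of them (Gm39701, Gm40595, Gm40814, Gm41844, Gm42226 and LOC105244034), on chromosomes 1, 5, 10, 11 and 19, share at least 20 words with 1 GENCODE transcript, Gm42427, up to 261 words in Gm40814. That transcript is 5292 bases long, and its longest frame of 921 codons holds the tyrosine-valine-aspartate-aspartate motif of retroviral reverse transcriptases. Gm46911 on chromosome 5 is linked through 47 words shared with Gm40814. The link was sought in promoter windows only. Gm43305, a lncRNA on chromosome 14, shares 283 words with Gm42427 in its transcript and is not among the 7. Its log2 fold change was -0.85 under knockdown (adjusted p = 0.0273) and 0.14 in 5NC against 3NC (adjusted p = 0.718), with a correlation of 0.407 to the mean profile of the 7 over the libraries. All 7 linked members were lower in KD than in 3NC with adjusted p ≤ 0.05, and 6 passed the stricter threshold, where 23.5% and 1.08% of all genes fell. The group was formed after its values were seen. In 5NC, 7 were lower and 5 passed it, against 25.6% and 1.05% of all genes. The summed RPKM of the 7 was 384.2 to 423.7 in the 3NC libraries, 125.8 to 142.0 in KD, 158.8 to 171.0 in 5NC and 144.5 to 162.6 in OV, so that 3NC stood above all other groups.

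LOC105244034, named Gm33887 in RefSeq, was at 24.7, 24.1 and 26.5 RPKM in 3NC, at 4.86, 4.65 and 3.23 in KD, at 4.64, 5.11 and 8.34 in 5NC, and at 4.68, 5.87 and 6.33 in OV. The libraries of 3NC did not overlap with any others. Its log2 fold change was -2.33 in knockdown (SE 0.16, adjusted p = 1.94e-08) and -1.93 in 5NC against 3NC (SE 0.16, adjusted p = 1.07e-07). Gm40814 was at 84.8, 92.4 and 94.9 RPKM in 3NC, and at 31.1, 27.6 and 25.3 in KD, with 26.5 to 28.8 in 5NC and 22.3 to 27.1 in OV. Its log2 fold change was -1.66 in both comparisons (SE 0.08, adjusted p = 3.76e-10 and 1.61e-10), and knockdown did not pass the test against 5NC (adjusted p = 1). Gm41844 fell from 97.3, 108 and 108 RPKM to 32.4, 31.7 and 26.5 RPKM (log2 fold change -1.76, adjusted p = 1.59e-09), and was at 29.9 to 38.2 RPKM in 5NC (-1.58, adjusted p = 3.49e-09). Against 5NC, 4 of the 7 were lower under knockdown with adjusted p ≤ 0.05 and 0 passed the stricter threshold, where 31.4% and 2.29% of all genes were lower. These were LOC105244034 (log2 fold change -0.40, adjusted p = 0.04), Gm40595 (-0.25, adjusted p = 0.0221), Gm39701 and Gm42226. Gm39701 was at 34.7 to 40.6 RPKM in KD and at 53.7 to 55.0 in 5NC (log2 fold change -0.53, adjusted p = 5.57e-06), and Gm42226 at 2.61 to 3.22 and 4.45 to 4.90 RPKM (log2 fold change -0.53, adjusted p = 3.09e-05).

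**Figure D3:**
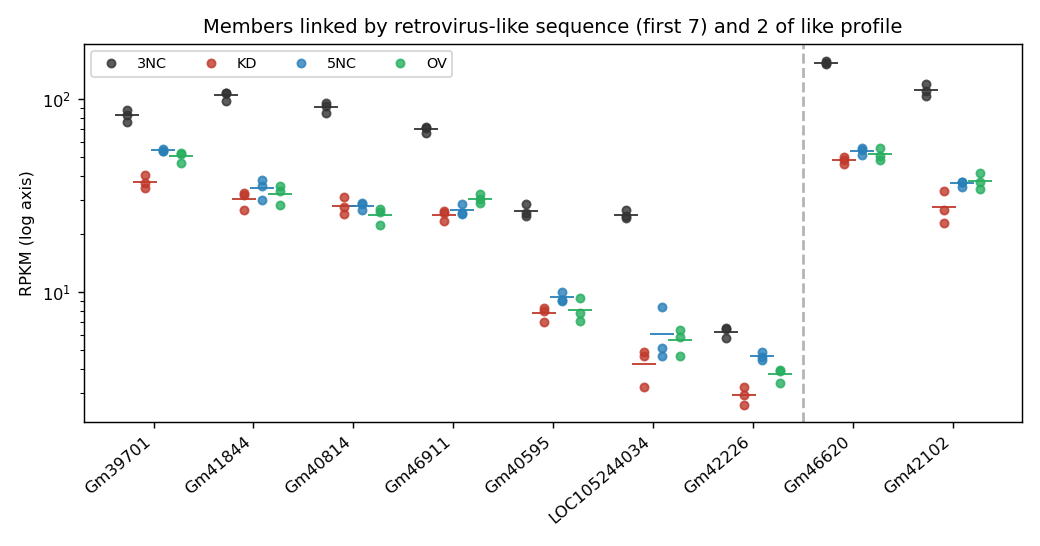
RPKM (vertical, log axis) in each of 3 libraries a group (points) with the group mean (bar), for the 7 members linked by retrovirus-like sequence and, right of the dashed line, Gm46620 and Gm42102. In all 9 genes the 3NC libraries lie above those of the other groups, for example 84.8 to 94.9 RPKM against 22.3 to 31.1 RPKM in Gm40814.

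Further members had a like profile, and none met the rule for the link. Over the 12 libraries, 9 other members had a correlation of at least 0.95 with the mean log2 profile of the 7, as a description over libraries in which 3NC stands apart. Of these 9, 5 have no RefSeq entry, and the link could not be examined in them. Gm46620 (r = 0.992) was at 152, 157 and 154 RPKM in 3NC and at 45.9, 50.1 and 48.1 RPKM in KD (log2 fold change -1.66, adjusted p = 1.49e-11). Gm42102 (r = 0.989) was at 103, 111 and 120 RPKM against 26.5, 33.2 and 22.8 RPKM (log2 fold change -1.99, adjusted p = 9.28e-10), and at 35.1 to 37.3 RPKM in 5NC (-1.58, adjusted p = 7.2e-09). Gm43828 (r = 0.968), an annotated pseudogene on chromosome 5 whose transcript of 609 words shared none with another gene, was at 32.2 to 33.4 RPKM in 3NC and 9.83 to 10.5 RPKM in 5NC (log2 fold change -1.60, adjusted p = 5.38e-12).

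Most members of the cluster at the start of chromosome 14 fell in both comparisons with 3NC. It lies where the α-takusan family is found, multicopy genes related to the polarity gene Dlg5 and studied at synapses. Of its 22 members, 17 fell and 1 rose under knockdown with adjusted p ≤ 0.05, at a median log2 fold change of -0.676, and 20 fell and 0 rose in 5NC against 3NC (median -0.757). Of all genes, 23.5% and 25.6% fell. At the stricter threshold these were Gm10410, Gm38690 and Gm2974 under knockdown and Gm10410, Gm2897 and Gm3383 between the controls. Gm10410 and Gm2974 were listed only because of their level in 3NC and are part of the counts and medians of the 22. Members of the cluster also share many words, as Gm3591 does with Gm3636 (78.0%), so they are not 22 separate measurements. Nothing is read from these counts and medians beyond a description. The summed RPKM of the cluster was 221.7 to 236.8 in 3NC, 126.4 to 142.5 in KD, 120.2 to 124.8 in 5NC and 107.0 to 118.8 in OV. Gm3636, the highest of them, was at 38.0, 36.6 and 38.2 RPKM in 3NC and at 21.8, 21.6 and 26.3 in KD (log2 fold change -0.68, adjusted p = 1.67e-06). Gm10410 was at 5.38 to 5.72 RPKM in 3NC and at 1.28 to 1.49 in KD, a log2 difference of -1.45 that is a description, since its level in 3NC decided that it was listed. Dlg5 itself was at 8.37 to 8.66 RPKM in 3NC and 8.11 to 9.16 in KD (log2 fold change 0.03, adjusted p = 0.667).

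The single member that rose there, Gm3050, shares the window shown above with Gm2977. Both count as near-identical by their promoter windows alone. Gm2977 was at 14.7, 12.7 and 16.8 RPKM in 3NC and at 4.65, 5.66 and 0.24 in KD, whereas Gm3050 was at 0.03, 2.51 and 0.44 RPKM in 3NC and at 2.90, 2.2 and 9.45 in KD. The knockdown library with the lowest Gm2977 had the highest Gm3050. Log2 fold changes were -2.12 for Gm2977 (adjusted p = 0.00553) and 1.55 for Gm3050 (adjusted p = 0.0257), whose libraries overlap. Their sum was 14.8, 15.2 and 17.2 RPKM in 3NC and 7.55, 7.86 and 9.69 RPKM in KD, a log2 fold change of -0.84 (SE 0.10, adjusted p = 2.54e-06).

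**Figure D4:**
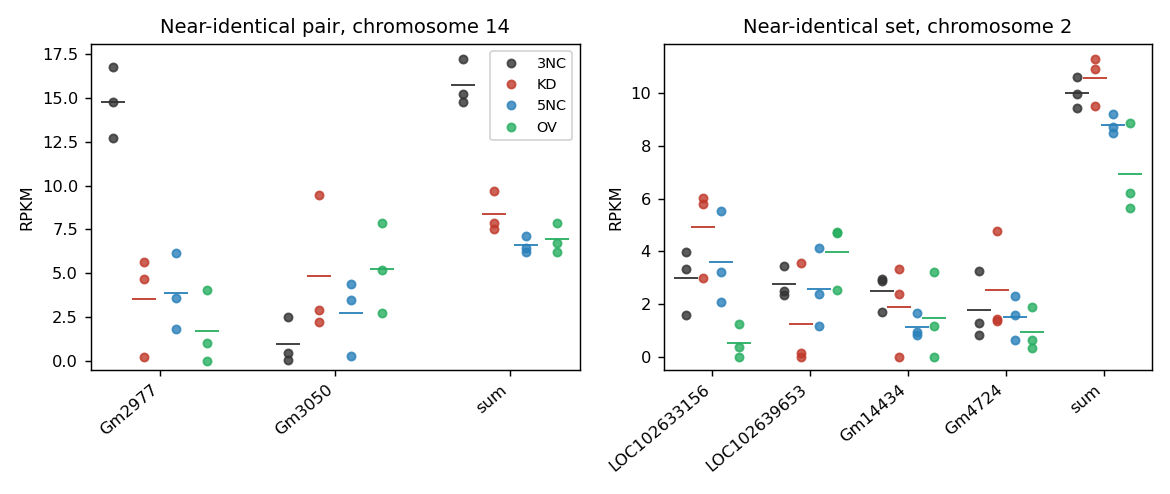
RPKM in each of 3 libraries a group (points) with the group mean (bar), for 2 sets of members near-identical by promoter window or transcript, and for the sum of each set. Single genes spread widely within a group, as Gm3050 does in KD (2.2 to 9.45 RPKM), while the sums are closer (7.55 to 9.69 RPKM).

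Of the 11 members on chromosome X, 9 rose under knockdown with adjusted p ≤ 0.05, where 31.9% of all genes rose. All 11 had a positive log2 fold change against 3NC (0.08 to 1.99, median 0.66). Gm16404 and Gm10058 were members only through their level in KD, and 7 of the 9 others rose. In 5NC against 3NC, 1 rose and 3 fell, where 31% of all genes rose and 25.6% fell. Gm16404 was at 1.03, 0.39 and 0.89 RPKM in 3NC, at 4.79, 5.97 and 7.26 in KD, at 0.20, 0.37 and 0.34 in 5NC, and at 0.61, 0.18 and 0.12 in OV. KD was higher by 1.99 in log2 units than 3NC (SE 0.16) and by 2.41 than 5NC. Gm10058 was at 0.35, 0.35 and 0.26 RPKM in 3NC and at 2.48, 2.91 and 2.31 in KD (log2 difference 1.43, SE 0.11). As both had to be high in KD to be listed, these differences are a description. The same holds for all 8 members that passed in 1 group only. All words of Gm16404 occur in Gm14625 (at most 0.2 RPKM in any library), and all of Gm10058 in Gm14819.

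Of the members on chromosome X, 8 lie in a cluster near Luzp4 and Ott, genes known from germ cells. The 7 of them that rose are among the 9 counted above, against 31.9% of all genes. Gm10439 was at 5.48, 6.97 and 4.74 RPKM in 3NC and at 10.8, 8.93 and 8.98 in KD (log2 fold change 0.66, adjusted p = 0.000108), and Gm15127 was at 2.2, 2.73 and 2 against 4.06, 3.94 and 5.03 RPKM (0.69, adjusted p = 3.82e-05). Gm15085, all of whose words occur in Ott, varied between libraries, at 5.39, 0 and 6.42 RPKM in KD (adjusted p = 0.0927), and Ott was at 0, 5.02 and 0 RPKM in the same libraries. Ott was high only in the KD library where Gm15085 was at 0. The sum of the 4 near-identical members Gm10439, Gm15080, Gm15085 and Gm15093 rose by 0.71 (SE 0.11, adjusted p = 4.78e-05). Gm10439 is among them by its promoter window alone and shares 64.9% of its transcript words with Gm15085. Ott, which holds 93.8% of the words of Gm15080, is not in that sum. It was at 2.39, 5.29 and 4.65 RPKM in 3NC and fell under knockdown (log2 fold change -1.44, adjusted p = 0.0285), with overlap. With Ott included, the sum was 21.6, 22.6 and 18.4 RPKM in 3NC and 30.3, 28.4 and 30.5 RPKM in KD, without overlap and not tested.

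**Figure D5:**
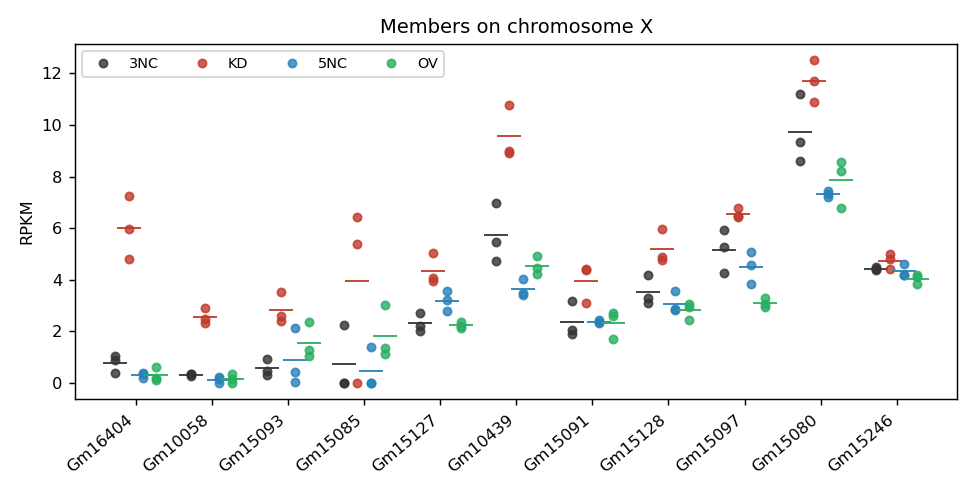
RPKM in each of 3 libraries a group (points) with the group mean (bar) for the 11 members on chromosome X. The KD libraries of Gm16404 (4.79 to 7.26 RPKM) and Gm10058 (2.31 to 2.91 RPKM) lie above all others, and those of Gm15085 spread from 0 to 6.42 RPKM.

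C2H2 zinc finger units were found in several clusters. Of 40 members with at least 3 units in their transcript, 0 passed the stricter threshold in any of the comparisons. With adjusted p ≤ 0.05, 12 rose and 5 fell under knockdown, where 31.9% of all genes rose and 23.5% fell, and 0 rose and 9 fell under overexpression, where 8.07% of all genes rose and 13.9% fell. Most of the latter were on chromosome 2, where 5 of 15 cluster members fell. Gm14295, the highest of these, was at 86.4, 88.3 and 86.6 RPKM in 5NC and at 73.6, 73.4 and 76.7 in OV (log2 fold change -0.22, adjusted p = 0.0218). Gm14305 was at 4.96, 5.26 and 4.66 RPKM against 2.87, 3.25 and 3.50 RPKM (-0.50, adjusted p = 0.00792).

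LOC102633156 had the largest fall under overexpression, and it is of this cluster. It was at 5.54, 3.20 and 2.09 RPKM in 5NC and at 1.25, 0 and 0.35 in OV (log2 fold change -1.60, SE 0.32, adjusted p = 0.00468), without overlap, and the fold change was -3.13 with a pseudocount of 0.1. LOC102639653, with the shared window shown above, was at 1.16, 2.38 and 4.14 RPKM in 5NC and at 2.51, 4.70 and 4.72 in OV (0.54, adjusted p = 0.39). Summed with both other near-identical members, Gm14434 and Gm4724, the log2 fold change was -0.33 (SE 0.11, adjusted p = 0.0467), with 8.50 to 9.22 RPKM in 5NC and 5.66, 6.21 and 8.88 in OV. LOC102633156 is in that set by its promoter window alone and shares 33.0% of its transcript words with Gm14434.

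No member passed the stricter threshold under overexpression, and no gene of the whole table did (0% higher and 0% lower). By limma with adjusted p ≤ 0.05, 27 members were lower (14.2%) and 10 higher (5.26%), against 13.9% and 8.07% of all genes. Their median difference in log2 units was -0.095, and -0.027 over all genes. Without library 3 of OV, which stood apart, 58 members were lower and 11 higher, and 2509 and 1672 of all genes.

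Among members that passed the test, Gm11127 had the largest rise under overexpression on this scale (with a pseudocount of 0.1, 0.67 against 1.07 for Gm10639). It is a model in the MHC class I region of chromosome 17 and was at 12.1, 10.4 and 11.3 RPKM in 5NC and at 19.1, 19.5 and 15.5 in OV (log2 fold change 0.63, adjusted p = 0.00652). Gm10639 followed, which shares 47.8% of its words with Gsta2, of the glutathione S-transferase alpha family that conjugates glutathione to reactive compounds. It was at 0.87, 0.38 and 0.69 RPKM in 5NC and at 1.60, 1.29 and 1.34 in OV (0.56, adjusted p = 0.00801). It was at 2.97, 2.73 and 3.51 RPKM in 3NC and at 0.58, 0.67 and 0.27 in KD. Since it passed the threshold of membership only in 3NC, its log2 differences from 3NC (-1.44 in KD and -1.31 in 5NC) are a description. Gsta1, of the same family, had log2 fold changes of -2.30 in knockdown and 0.82 in overexpression (adjusted p = 1.49e-11 and 2.54e-05), and Gm3776, the neighbour of Gm10639, of -1.78 and 0.94 (adjusted p = 3.12e-06 and 0.00636). Both were also lower in 5NC than in 3NC, by -1.71 for Gsta1 (adjusted p = 1.05e-10) and -1.59 for Gm3776 (adjusted p = 8.92e-06). Gm20594, which shares words with the mitochondrial 16S ribosomal RNA gene, was at 224, 206 and 214 RPKM in 5NC and at 294, 280 and 266 in OV (0.38, adjusted p = 0.0012). Gm46403 (4.74 to 6.01 against 7.85 to 8.18 RPKM, adjusted p = 0.0302) and Gm46894 (0.81 to 1.14 against 1.29 to 1.73 RPKM, adjusted p = 0.03) were also higher, but lost the call in 5 and 3 of 6 fits without 1 library.

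Among the members that were lower under overexpression, Gm41885 was at 23.1, 25.7 and 28.0 RPKM in 5NC and at 15.7, 19.2 and 16.9 in OV (log2 fold change -0.54, adjusted p = 0.00314). It was also lower in KD (14.2 to 18.3 RPKM) than in 3NC (22.1 to 27.5 RPKM, log2 fold change -0.61, adjusted p = 0.000104), so that both modified groups lay below their own control. Gm20385 was at 0.93 to 1.40 RPKM in 5NC and 0.35 to 0.65 in OV (-0.59, adjusted p = 0.0146, lost in 4 of 6 fits without 1 library). It had 3.11 to 4.2 RPKM in KD, above 3NC at 1.5 to 3.02. Without its level in KD it would not have been listed, so this log2 difference of 0.50 is a description. Gm38690 and Gm3239 of chromosome 14 fell with overlap of the libraries, at 2.35 to 2.99 against 0.56 to 2.73 RPKM (adjusted p = 0.0468) and at 1.28 to 3.36 against 0.88 to 1.42 RPKM (adjusted p = 0.0328), and lost the call in 5 and 4 of 6 fits without 1 library.

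At the stricter threshold, 3 members were higher in 5NC than in 3NC (1.58%, against 1.56% of all genes). Gm40368 was at 4.87, 5.96 and 3.84 RPKM in 3NC and at 15.95, 13.9 and 15.5 in 5NC, with 5.36 to 8.22 in KD and 14.02 to 16.1 in OV (log2 fold change 1.46, adjusted p = 2.26e-07). Gm45929, which overlaps Borcs8, was at 0.23 to 0.75 RPKM in 3NC and 2.23 to 2.59 in 5NC (log2 difference 1.19), and Gm40363 at 1.01 to 1.51 and 2.85 to 4.89 RPKM (1.06). Both reached 2 RPKM only in 5NC and OV libraries, so these differences are a description. In Gm40368 the groups divided by vector, with 3NC and KD low and 5NC and OV high. For Gm45929 and Gm40363 the membership rule set that pattern, so nothing is read from it. The vector and the control group cannot be told apart in this design.

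The genes beside the members were compared with them. For 103 of 156 members with a position, the nearest tested gene was not itself a member, and 53 of these pairs had the same direction under knockdown and 57 in 5NC against 3NC. The same share was not computed for pairs of other genes. Beside the 7 members linked by retrovirus-like sequence, 3 neighbours were lower under knockdown with adjusted p ≤ 0.05, where 23.5% of all genes fell. These were Hus1 beside Gm40814 (log2 fold change -0.49, adjusted p = 2.1e-05), Cc2d2a beside Gm46911 (-0.28, adjusted p = 0.011) and Degs1 beside LOC105244034 (-0.16, adjusted p = 0.00878). The others (Dusp12, Fbxo5, Slc35g1 and Srpk2) were between -0.09 and 0.04. In 5NC against 3NC, Slc35g1 beside Gm41844 was higher (0.45, adjusted p = 0.000301), and the other 6 did not pass, where 31% of all genes rose and 25.6% fell.

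The widest spread between libraries was in Gm40525 and LOC100862468. LOC100862468 was at 25.4, 15.8 and 1.73 RPKM in KD and at 0, 2.02 and 0 in 3NC, and its log2 fold change of 2.88 (adjusted p = 0.00287) came with overlapping libraries. Gm40525 was at 0, 7.51 and 12.5 RPKM in 3NC. The 6 lncRNA entries did not pass the stricter threshold in any comparison, and 1 rose and 2 fell under knockdown with adjusted p ≤ 0.05, where 31.9% of all genes rose and 23.5% fell.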

How the data were processed

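C18-4 libraries (n = 3 a group) had been made from total RNA with oligo(dT) selection, sequenced on a HiSeq instrument and aligned with SOAPaligner by the authors, per their methods. The deposited values are RPKM per gene with 2 decimals, normalized by the authors for transcript length and mapped reads. Gene set, strand and genome build are not given in the sources used here, nor are read numbers, so depth is unknown. Steps of low values gave relative depths of 0.90 to 1.06, each from at most 20 genes, and whole reads were not recovered.

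The 11435 genes that reached 1 RPKM in 3 or more libraries were fitted with limma 3.58.1 on log2(RPKM + 1), pseudocount 1, with a mean for each of 4 groups, an intensity trend and Benjamini-Hochberg adjustment. A fold change on this scale understates the change of low genes. Calls needed adjusted p ≤ 0.001 with a log2 fold change of 1 or more in size, or, as a second rule, adjusted p ≤ 0.05. Exact permutation of 3 against 3 libraries cannot give a two-sided p below 0.1. The fit was tested on simulated data.

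Words of 31 bases were counted in GENCODE transcripts and RefSeq windows, and finger units by cysteine and histidine spacing. Transcripts that shared 90% of their words, or windows that shared 80%, counted as near-identical. Chromosome clusters were runs of at least 4 members with gaps of at most 3 Mb. The members and lists were chosen with earlier results of these data known. Named are the 5 largest rises and falls per comparison past the stricter threshold without overlap (for overexpression, past adjusted p ≤ 0.05, with or without overlap), the 5 highest levels and the genes at the membership threshold. Other genes, sequence groups and relatives were chosen after their values were seen. Families by product description could not be formed, as the tables used hold none. Alternatives were other pseudocounts, filters, scalings, fits and membership thresholds, a replicate block and leaving out each library.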

Additional observations from a re-analysis of the deposited data

How the results depend on the processing

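The numbers of members past the stricter threshold were 22 under knockdown, 0 under overexpression and 21 between the controls. With adjusted p ≤ 0.05 and no limit on the fold they were 109, 37 and 92, and with the limit kept, 1 passed under overexpression. With 5NC in place of 3NC as the control of knockdown the number was 7. Quantile normalization moved the median log2 fold change of the members under knockdown from -0.001 to -0.072, and the cause was not tested. Leaving out 1 library at a time gave 20 to 25, 0 to 0 and 21 to 23 members, and medians of -0.03 to 0.02, -0.116 to -0.06 and -0.168 to -0.126. Summing near-identical members, an alternative chosen after seeing the data, as was leaving out library 3 of OV for the count with adjusted p ≤ 0.05, gave 22, 0 and 22.

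With the replicate block the numbers were 23, 1 and 22. The 1 under overexpression was LOC102633156, of the zinc finger members (log2 fold change -1.6, adjusted p = 0.000918 by limma). Same-numbered libraries correlated, in their deviations from the group means, from -0.178 to -0.034 for KD and 3NC, from 0.049 to 0.096 for 5NC and 3NC, and from -0.133 to 0.176 for OV and 5NC, so that the numbers do not pair the libraries.

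Changes of sign were seen in small differences that did not pass the test. Leaving out 1 library, LOC105244208 under knockdown (0.02) ranged from -0.01, without KD library 3, to 0.05, and it was 0.11 after quantile normalization, which passed adjusted p ≤ 0.05 (0.011). Under overexpression (0.07) it was -0.03 after quantile normalization. Gm8210 under overexpression (0.03) was -0.07 after quantile normalization and ranged from -0.03, without OV library 1, to 0.1, with -0.02 without 5NC library 2. Between the controls (0.02) it ranged from -0.03, without 5NC library 1, to 0.07, and was 0.19 after quantile normalization (adjusted p = 0.000314). Gm46403, Gm46894, Gm38690, Gm20385 and Gm3239 lost the call under overexpression in 3 to 5 of 6 fits that left out 1 library, Gm46403 also with a pseudocount of 0.1, Gm38690 and Gm3239 after quantile normalization, and Gm38690, Gm3239 and Gm46894 in a fit to the 6 libraries compared. Gm38690 ranged from -0.36 to -1.05 over all alternatives, and Gm40363 fell to 0.87, under the fold limit, without 5NC library 1. Without read numbers, the depth behind a low value is unknown.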
